A study of Mus musculus with 19 samples.

Results

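Chromatin accessibility was examined at 10 genes that receive growth factor signals or answer them. They are the receptors Egfr, Fgfr1, Fgfr2 and Fgfr3, the inhibitors Spry1, Spry2, Spry4 and Dusp6, and the transcription factors Etv4 and Etv5. A peak was taken as a member when its centre lay within one of these genes or at most 20 kb from either end. This gave 77 of the 90154 peaks, with 17 at Egfr, 9 at Fgfr1, 13 at Fgfr2, 8 at Fgfr3, 3 at Spry1, 3 at Spry2, 5 at Spry4, 4 at Dusp6, 7 at Etv4 and 8 at Etv5. All 77 passed the filter on low reads. The rule that assigned peaks to genes used gene positions and no measured value, but the genes were chosen with earlier results of these data known.

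EGF and FGF bind receptor tyrosine kinases on the cell surface, which pass the signal through RAS and RAF to the kinase ERK. ERK activity switches on genes that feed back on it. Sprouty proteins (Spry1, Spry2, Spry4) dampen signalling below the receptor, Dusp6 is a phosphatase that inactivates ERK, and Etv4 and Etv5 are ETS-family transcription factors that are widely used as readouts of FGF and ERK signalling. In the brain, Egfr marks proliferating progenitors that respond to EGF, and Fgfr3 is also known as a gene of astrocytes and their precursors.

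The cells were primary neural stem and progenitor cells. Each preparation came from the ventricular zone of 1 brain of a wild type C57BL/6J mouse at embryonic day 14. They grew as floating neurospheres (NSPs) in medium with EGF at 20 ng/ml, the only growth factor that the protocol names. Differentiation was started by changing to medium with 10% fetal bovine serum on coated plates, in which the protocol lists no EGF, either alone or with the inflammatory cytokine TNF at 50 ng/ml. The 19 ATAC-seq libraries formed 6 groups. NSPs gave 3, serum without TNF gave 3 at 24 h, 3 at 72 h and 4 at 1 week, and serum with TNF gave 3 at each of the first pair of times. Medium, attachment to the plate and time changed together, so their effects cannot be told apart. The methods state for the study in general that values come from at least 3 independent experiments, but the labels tie no library to an animal or culture, so the p-values measure the spread between libraries, which may in part be technical.

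The sequence before the gene start was taken from RefSeq (GRCm38.p6) for 7 of the 10 genes, and not for Fgfr1, Spry4 and Etv4. The 250 bases before the start lay within the peak at the start for Egfr, Dusp6 and Etv5, and 241 of them did so for Fgfr3. These 4 are shown because they are the DNA whose accessibility is described below for a pair of receptors, an inhibitor and a transcription factor. They run 5′ to 3′ along the gene, and capitals mark matches, on either strand, to ETS (CCGGAA) or SP/KLF (GGGCGG) motifs:
Egfr (chr11:16751953-16752202, plus strand): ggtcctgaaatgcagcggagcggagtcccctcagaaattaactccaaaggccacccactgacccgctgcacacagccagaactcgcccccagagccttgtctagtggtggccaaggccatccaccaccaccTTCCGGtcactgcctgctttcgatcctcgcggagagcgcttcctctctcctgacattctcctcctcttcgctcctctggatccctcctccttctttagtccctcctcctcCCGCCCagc
Fgfr3 (chr5:33721474-33721723, plus strand): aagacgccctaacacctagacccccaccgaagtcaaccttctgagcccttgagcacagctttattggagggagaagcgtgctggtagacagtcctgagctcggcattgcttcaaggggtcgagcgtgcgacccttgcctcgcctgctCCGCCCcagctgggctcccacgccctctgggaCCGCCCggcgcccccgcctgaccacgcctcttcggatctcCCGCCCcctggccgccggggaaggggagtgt
Dusp6 (chr10:99262981-99263230, plus strand): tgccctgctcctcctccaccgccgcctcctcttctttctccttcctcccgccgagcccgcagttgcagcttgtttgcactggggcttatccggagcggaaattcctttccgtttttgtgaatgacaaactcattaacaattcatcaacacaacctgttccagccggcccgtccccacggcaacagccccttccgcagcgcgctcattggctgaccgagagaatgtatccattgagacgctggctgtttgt
Etv5 (chr16:22439571-22439820, minus strand): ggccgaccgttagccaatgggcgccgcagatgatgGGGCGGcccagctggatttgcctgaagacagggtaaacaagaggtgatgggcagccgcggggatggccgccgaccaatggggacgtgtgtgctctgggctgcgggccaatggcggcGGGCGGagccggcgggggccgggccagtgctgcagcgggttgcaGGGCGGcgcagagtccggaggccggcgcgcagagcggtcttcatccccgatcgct
The motifs searched for also included AP-1 (TGANTCA), CRE (TGACGTCA), E-box (CACGTG), NFI (TTGGCA) and the CArG box, and none of these strings of letters contains another. The search covered 300 bases, from 250 before to 50 after the start. Egfr held 1 ETS and 1 SP/KLF match, Fgfr3 held 4 SP/KLF matches of which 3 lie in the stretch shown, Etv5 held 3 SP/KLF matches, and Dusp6 held no match to any of the 7 motifs. SP/KLF letters occurred in 35.7% and ETS letters in 14.9% of 32851 promoter windows of the same length. A match is a description of the letters and not evidence of a bound factor.

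Values are normalised read counts per peak of 500 bp, as deposited. Reads in peaks ranged from 9640256 to 39349111 per library, and the NSP libraries were the deepest. NSP replicate 1 stood apart, with a Spearman correlation across peaks as low as 0.916 to another NSP library, against 0.942 to 0.979 within the other groups. The libraries at 72 h and 1 week carry a tag in their names that the NSP and 24 h libraries lack. Whatever the tag stands for thus cannot be told apart from time when 72 h or 1 week is compared with NSPs or 24 h. Of all 90154 peaks, 212 were near 0 in all libraries with the tag and well covered in those without it, and 0 of them were at these genes. At that share, few or none would lie among any 77 peaks. This count finds only peaks present in one set and nearly absent in the other, and cannot show a smaller effect of the tag. The labelled cells were set against the start peaks of marker genes, which 4 of 5 progenitor, 5 of 6 astrocyte, 3 of 4 neuron, 1 of 4 oligodendrocyte, 2 of 5 microglia, 0 of 2 endothelium and 1 of 3 fibroblast genes had. All 4 progenitor peaks were lower at 24 h, and 2 at 1 week. Of the progenitor genes, Hes5 went from 1976 ± 208 in NSPs to 93.0 ± 20.0 at 1 week (mean ± SD), but Sox2 and Nes held 1280 ± 63.7 and 471 ± 19.8 at 1 week beside 1258 ± 161 and 435 ± 93.1 in NSPs. The astrocyte peaks were mixed, with 1 higher and 2 lower at 24 h, 2 and 2 at 72 h, and 3 higher and 1 lower at 1 week. Gfap went from 108 ± 68.1 to 258 ± 15.0 at 1 week, while S100b fell from 562 ± 116 to 178 ± 7.54. Without TNF, Aldh1l1 was called lower at 72 h and not at 24 h or 1 week. At 72 h with TNF it was also low, at 30.9 ± 7.86 beside 89.3 ± 45.8 in NSPs. The part of cell types in the results below was not tested. In bulk libraries a change in the share of a cell type and a change within cells cannot be told apart.

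Of the 77 peaks, 64 differed over the 6 groups, against 85% of all 88919 peaks tested. Changes are differences of log2(value + 1) with their standard errors, and those with an adjusted p under 0.05 from limma, fitted over all peaks, are called higher or lower. At 24 h, 14 peaks were called higher and 32 lower than in NSPs, where 24.2% and 23% of all peaks were called. At 72 h there were 16 higher and 40 lower, with a background of 28.3% and 30.9%. After 1 week there were 17 higher and 34 lower, with a background of 33.7% and 33.6%. In cells with TNF, 20 were higher and 33 lower at 24 h (background 26.5% and 25.5%), and 20 were higher and 34 lower at 72 h (background 29.1% and 30.9%). All 5 comparisons share the NSP libraries. With the deposited scaling, lower calls thus made up a larger share of the members than of all peaks at 24 h and 72 h. At 1 week their share was closer to the background, a difference that was not tested. Scaling by total reads moved the median of all peaks at 24 h from -0.07 to 0.11, and at 72 h from -0.06 to 0.21. It gave 18 higher and 26 lower at 24 h, with a background of 29.4% and 13.9%, 18 and 28 at 72 h (36.7% and 20.8%), and 24 and 23 at 72 h with TNF (35.1% and 23.5%). At 1 week it gave 17 and 38 (31.1% and 35.9%). With offsets fitted by loess there were 14 and 30 at 24 h (24.5% and 19.9%) and 15 and 36 at 72 h (29% and 27.2%). At 1 week loess gave 19 and 41 (33.1% and 33.1%), where the lower calls also exceeded the background.

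**Figure D1:**
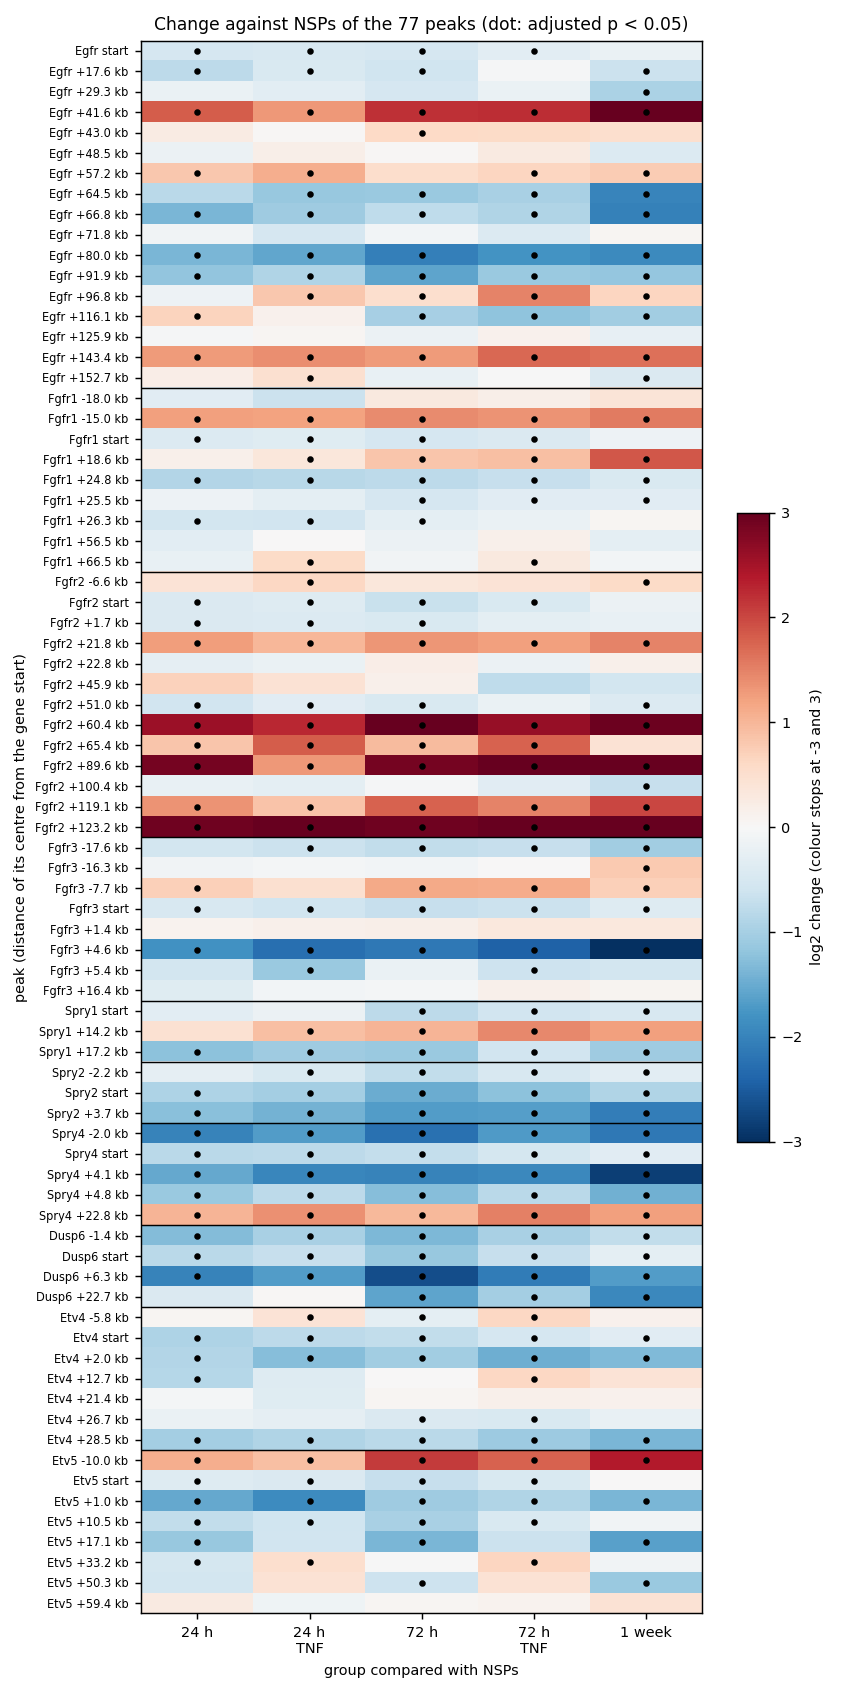
Each row is 1 of the 77 peaks, named by gene and distance of its centre from the gene start in kb, and each column is a group compared with NSPs. Colour gives the log2 change and a dot marks an adjusted p under 0.05. The inhibitor rows are mostly blue, while Egfr and Fgfr2 hold rows of both colours.

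Of the 15 peaks at the inhibitors, 10 were lower at 24 h, 13 were lower at both 72 h and 1 week, and the other 2 were higher at both times. With the same window, the counts of 10 at 24 h and 13 at 72 h were reached under every other fit and scaling and with each library left out, and at 1 week the count of lower peaks ranged from 10, without 1 week replicate 1, to 13. Of the 15 peaks at Etv4 and Etv5, 9 were lower at 24 h, 10 at 72 h and 6 at 1 week, and 1 was higher at each time. The 47 receptor peaks went both ways in shares close to those of all peaks, with 12 higher (25.5%) and 13 lower (27.7%) at 24 h and 14 higher (29.8%) and 15 lower (31.9%) at 1 week. Over 24 h, 72 h and 1 week together, 23 of the 77 peaks (29.9%) were lower at every time, as were 14.2% of all peaks tested, and 11 (14.3%) were higher at every time, as were 18.7% of all peaks. Of those 11, 9 lay at receptor genes, which hold 61% of the 77 peaks. At 24 h, 72 h and 1 week the inhibitor peaks had median changes of -0.93, -1.29 and -0.90, and all peaks of -0.07, -0.06 and 0.01. For the receptor peaks it was -0.17, -0.09 and -0.16, and for the peaks of Etv4 and Etv5 -0.56, -0.61 and -0.10. A test of the difference between roles was not made.

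Egfr, the receptor for EGF itself, lost accessibility at its most open peak away from the start. This peak lies inside the gene, 80.0 kb from its start (chr11:16831925-16832425), and held 1228, 937 and 983 normalised reads in the 3 NSP libraries. It held 358, 482 and 372 at 24 h, 234, 280 and 245 at 72 h, and 265, 272, 268 and 310 at 1 week. No library of differentiating cells reached the lowest NSP library. The rule that named this peak selected for a small p and, at 24 h and 1 week, for no overlap. The change was -1.38 ± 0.14 at 24 h (adjusted p = 5.19e-09), -2.04 ± 0.14 at 72 h (adjusted p = 7.71e-13) and -1.90 ± 0.13 at 1 week (adjusted p = 3.5e-13). The peak at the Egfr start (chr11:16751915-16752415) moved less. It held 539, 611 and 631 in NSPs and 418, 435 and 402 at 24 h, a change of -0.50 ± 0.11 (adjusted p = 0.000433). At 1 week it held 514, 486, 513 and 537, all below the NSP libraries, but the change of -0.21 ± 0.10 was not called (adjusted p = 0.0746).

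Other Egfr peaks opened in the same cells. The peak 41.6 kb into the gene (chr11:16793537-16794037) held 43.8, 18.8 and 11.3 normalised reads in NSPs, 69.5, 73.8 and 89.9 at 24 h, and 194, 164, 229 and 175 at 1 week. It rose by 1.82 ± 0.29 at 24 h (adjusted p = 7.17e-06) and by 3.10 ± 0.27 at 1 week (adjusted p = 3.7e-11). The peak 143.4 kb into the gene also rose at every time, by 1.27 ± 0.26 at 24 h and 1.64 ± 0.24 at 1 week. In contrast, the peak at 66.8 kb fell from 50.2, 78.2 and 70.4 in NSPs to 16.8, 13.2, 19.8 and 11.8 at 1 week, a change of -2.04 ± 0.31 (adjusted p = 1.32e-06). The peak at 116.1 kb changed direction. It rose by 0.66 ± 0.21 at 24 h (adjusted p = 0.0106, or 0.0515 without NSP replicate 2) and then lay below the NSP libraries, by -1.01 ± 0.21 at 72 h and -1.04 ± 0.20 at 1 week. It was the only one of the 77 called in opposite directions among 24 h, 72 h and 1 week against NSPs, where 2.8% of all peaks were. The peaks at 143.4 kb and 116.1 kb, like the other peaks described that the rule for named peaks did not choose, were picked after their values had been seen.

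Fgfr2, a receptor for FGFs, gained accessibility at several peaks away from its start. A peak 123.2 kb from the gene start, beyond the far end of the gene (chr7:130143373-130143873), held 56.1, 106 and 97.0 normalised reads in NSPs and 702, 571 and 656 at 24 h. It stayed high at 72 h, with 614, 574 and 738, and reached 1099, 1100, 1186 and 1043 at 1 week. The change was 2.93 ± 0.16 at 24 h (adjusted p = 5.1e-15), which is 7.62-fold on this scale, and 3.72 ± 0.15 at 1 week (adjusted p = 5.5e-19), which is 13.1-fold. Its neighbour at 119.1 kb rose by 1.36 ± 0.21 at 24 h (adjusted p = 5.8e-06) and by 2.01 ± 0.20 at 1 week (adjusted p = 5.46e-10). Inside the gene, the peak at 60.4 kb went from 27.5, 11.3 and 7.97 in NSPs to 99.1, 69.3 and 89.9 at 24 h and 115, 115, 119 and 102 at 1 week, with changes of 2.56 ± 0.28 (adjusted p = 1.06e-08) and 2.95 ± 0.26 (adjusted p = 4.02e-11). The peak at 89.6 kb was close to the limit of detection in NSPs, at 4.67, 0.471 and 0.664, the last 2 of which are 1 read each, and held 48.5, 42.9, 50.6 and 50.4 at 1 week. Without NSP replicate 1 the changes at 24 h were 2.65 at 123.2 kb and 3.04 at 60.4 kb. At 89.6 kb the NSP libraries then left hold 1 read each, so no size of change is given. Altogether 5 of the 13 Fgfr2 peaks were higher at 24 h, 72 h and 1 week, among them the one at 89.6 kb. The Fgfr2 start peak went the other way, from 494, 362 and 383 in NSPs to 246, 242 and 287 at 72 h, a change of -0.67 ± 0.13 (adjusted p = 8.35e-05).

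Fgfr1, the FGF receptor with broad expression in neural cells, had a peak that opened late. It lies 18.6 kb into the gene (chr8:25537091-25537591) and held 504, 402 and 381 normalised reads in NSPs, 460, 531 and 432 at 24 h, 755, 675 and 840 at 72 h, and 1475, 1526, 1780 and 1419 at 1 week. The NSP and 24 h libraries overlapped (0.15 ± 0.13, adjusted p = 0.34). The peak was then higher by 0.82 ± 0.13 at 72 h (adjusted p = 2.27e-06) and by 1.86 ± 0.12 at 1 week (adjusted p = 2.9e-14). Its gain between 72 h and 1 week, 1.03 ± 0.12, was also called (adjusted p = 2.6e-07). A weaker peak 15.0 kb before the gene rose already by 24 h, from 29.2, 37.2 and 43.2 to 87.7, 75.2 and 97.3. The start peak was lower at 72 h, with 490, 477 and 435 against 719, 653 and 625 in NSPs (-0.51 ± 0.11, adjusted p = 0.000249).

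Fgfr3, the receptor of this family known from astrocytes, showed the largest loss of the 77 peaks at 1 week. The peak 4.6 kb into the gene (chr5:33726067-33726567) held 633, 529 and 518 normalised reads in NSPs, 190, 159 and 132 at 24 h, and 46.7, 50.7, 59.4 and 56.8 at 1 week. The change was -1.81 ± 0.18 at 24 h (adjusted p = 1.85e-09) and -3.37 ± 0.17 at 1 week (adjusted p = 9.98e-17), or 10.3-fold lower. The drop between 72 h, with 102, 126 and 154, and 1 week was called as well (-1.22 ± 0.17, adjusted p = 2.93e-06). The strongest Fgfr3 peak, 16.3 kb before the start, did the opposite. It held 1757, 1326 and 1233 in NSPs and 1348, 1379 and 1242 at 24 h, which overlapped, and 2325, 2241, 3079 and 2312 at 1 week, above every NSP library (0.80 ± 0.12, adjusted p = 1.03e-06). The start peak was lower at 24 h by -0.48 ± 0.13 (adjusted p = 0.00369), with 385, 417 and 358 against 601, 520 and 502.

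**Figure D2:**
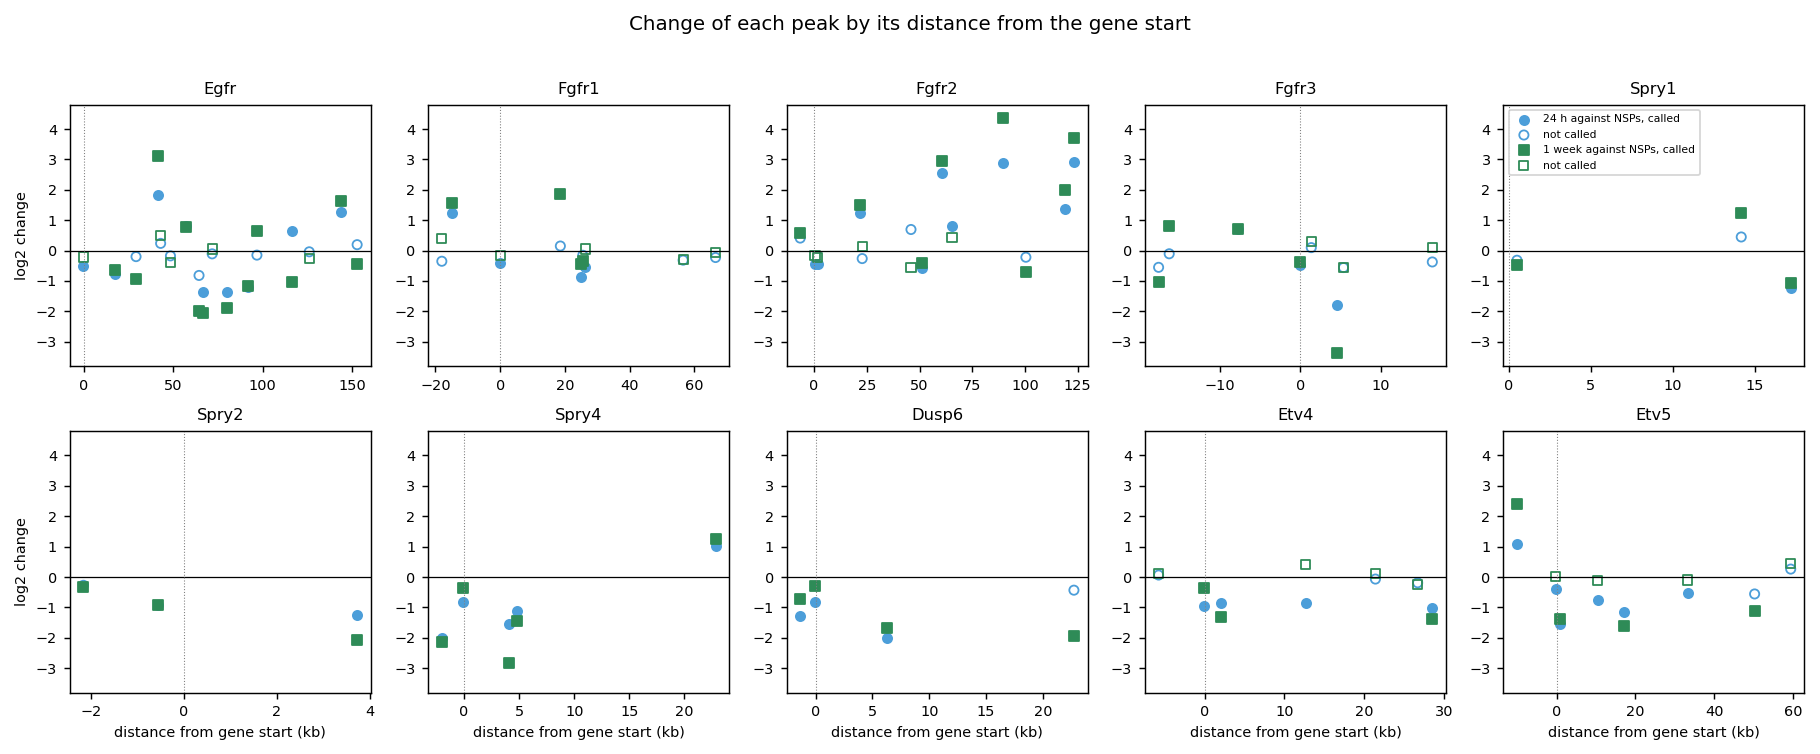
Each panel is a gene, the x axis is the distance of each peak centre from the gene start in kb, and the y axis is the log2 change against NSPs at 24 h (circles) and 1 week (squares), filled where called. Gains and losses lie side by side within Egfr, Fgfr2 and Etv5, and the Fgfr2 peak at 123.2 kb lies at 3.72 at 1 week.

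Spry2, an inhibitor of receptor tyrosine kinase signalling, had the largest fall among the start peaks of the 10 genes at 72 h. The peak (chr14:105897124-105897624) held 2458, 1816 and 2026 normalised reads in NSPs, 1160, 1216 and 919 at 24 h, 691, 818 and 718 at 72 h, and 1107, 1105, 1184 and 1060 at 1 week. The change was -0.93 ± 0.12 at 24 h (adjusted p = 1.84e-07), -1.49 ± 0.12 at 72 h (adjusted p = 1.04e-11) and -0.90 ± 0.11 at 1 week (adjusted p = 3.22e-08). The peak 3.7 kb after the start fell further with time, from 182, 357 and 371 in NSPs to 123, 114 and 124.4 at 24 h and 63.5, 63.9, 70.4 and 71.8 at 1 week (-2.09 ± 0.21, adjusted p = 7.53e-10). All 3 Spry2 peaks were lower than in NSPs at 72 h and at 1 week.

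Spry4, a Sprouty gene that responds readily to FGF, was lower at 4 of its 5 peaks at 24 h, 72 h and 1 week. Its start peak held 788, 519 and 540 normalised reads in NSPs and 324.5, 398 and 315 at 24 h (-0.81 ± 0.15, adjusted p = 4.16e-05). At 1 week its change of -0.35 was not called without NSP replicate 1 (-0.16, adjusted p = 0.274), without 1 week replicate 1 (-0.33) or replicate 3 (-0.29), or with only the groups compared. The peak 4.1 kb after the start held 98.1, 177 and 219 in NSPs and 30.9, 12.5, 28.6 and 18.2 at 1 week (-2.82 ± 0.33, adjusted p = 1.57e-08). A peak 2.0 kb before the start, which lies inside the neighbouring gene Arhgap26, went from 53.2, 131 and 146 to 23.9, 20.7 and 29.6 at 24 h. The fifth peak, 22.8 kb from the start and beyond the far end of the gene, rose at every time. It held 65.4, 113 and 120 in NSPs and 200, 223.7, 233 and 257 at 1 week (1.24 ± 0.19, adjusted p = 1.18e-06).

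Spry1, the third Sprouty gene, had the one start peak of the 10 that was not called at 24 h. It held 220, 171 and 158 normalised reads in NSPs and 129, 168 and 142 at 24 h, which overlapped (-0.32 ± 0.20, adjusted p = 0.19). It was lower at 72 h, with 90.1, 84.9 and 152 (-0.78 ± 0.20, adjusted p = 0.00121). Its other 2 peaks, both beyond the gene, moved apart. The peak 17.2 kb from the start fell from 129, 170 and 163 to 68.3, 60.5 and 65.3 at 24 h (-1.23 ± 0.20, adjusted p = 9.82e-06), while the peak at 14.2 kb rose from 46.1, 53.7 and 35.9 in NSPs to 90.1, 86.1 and 101 at 72 h (1.03 ± 0.22, adjusted p = 0.000265).

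Dusp6, the ERK phosphatase, was lower at 3 of its 4 peaks at 24 h, 72 h and 1 week, and at all 4 at 72 h and 1 week. The start peak (chr10:99262922-99263422), whose sequence is given above, held 1771, 2017 and 2328 normalised reads in NSPs, 1211, 1249 and 1016 at 24 h, 872, 929 and 944 at 72 h, and 1494, 1594, 1798 and 1787 at 1 week. It fell by 0.81 ± 0.11 at 24 h (adjusted p = 7.11e-07) and by 1.15 ± 0.11 at 72 h (adjusted p = 7.02e-10). At 1 week the libraries overlapped those of NSPs and the change was -0.28 ± 0.10 (adjusted p = 0.0178), which was not called without NSP replicate 3 (-0.18) or without 1 week replicate 1 (-0.23). Just upstream, the peak 1.4 kb before the start went from 493, 918 and 967 to 312, 354 and 270 at 24 h (-1.29 ± 0.17, adjusted p = 4.18e-07). The peak 6.3 kb after the start, beyond the gene, held 89.4, 459 and 532 in NSPs and 34.7, 45.5 and 51.0 at 72 h (-2.67 ± 0.38, adjusted p = 6.43e-07). Here NSP replicate 1 lay far below the other NSP libraries, and without it the change at 72 h was -3.49.

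The inhibitor peaks away from the gene starts set NSP replicate 1 apart from the other NSP libraries. In 7 of these 11 peaks it held less than the mean of replicates 2 and 3 divided by 1.5, and in 0 of 11 more than 1.5 times that mean. Among all peaks tested, 17.7% were so much lower and 16.8% so much higher. The median ratio of replicate 1 to that mean was 0.523 over the 11 peaks, 1.05 over the 43 receptor peaks away from starts, 1.16 over the 13 of Etv4 and Etv5, and 1.00 over all peaks. At the 10 start peaks it was 1.23, and at the start peaks of all genes 1.13. Leaving out this library left 32 peaks called lower and 15 called higher at 24 h, and 34 lower and 19 higher at 1 week.

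Etv4, an ETS factor downstream of ERK, lost accessibility at its start peak, with a fall at 24 h about as large as that of Spry2. It held 725, 761 and 715 normalised reads in NSPs (chr11:101785124-101785624) and 369, 394 and 386 at 24 h. The change was -0.94 ± 0.12 at 24 h (adjusted p = 1.23e-07), -0.74 ± 0.12 at 72 h (adjusted p = 3.46e-06) and -0.35 ± 0.11 at 1 week (adjusted p = 0.00618), with no overlap between NSP and differentiating libraries at any of these times. The peak 2.0 kb after the start fell as well, by 0.87 ± 0.24 at 24 h (0.56 without NSP replicate 1) and by 1.31 ± 0.23 at 1 week. Its peak 28.5 kb from the start lies inside the neighbouring gene Dhx8 and went from 540, 445 and 435 in NSPs to 152, 155, 224.5 and 208 at 1 week (-1.37 ± 0.15, adjusted p = 2.53e-09).

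Etv5, the related ETS factor, had the most open start peak of the 10 genes. It held 3114, 2190 and 2409 normalised reads in NSPs (chr16:22439488-22439988), 1569, 1548 and 1621 at 72 h, and 2535, 2350, 2881 and 2552 at 1 week. It was lower at 72 h (-0.69 ± 0.11, adjusted p = 7.8e-06), and at 1 week the libraries overlapped those of NSPs (0.02 ± 0.11, adjusted p = 0.896). This return depended on the scaling. With offsets fitted by loess all 10 start peaks, this one included, were called lower than in NSPs at 1 week. Its change from 72 h to 1 week was then -0.026. The share of all start peaks called lower with loess offsets was not computed. With the deposited scaling, the peak 10.5 kb into the gene followed the same course. It held 1821, 1845 and 1929 in NSPs, 1161, 1185 and 998 at 24 h, 862, 910 and 1092 at 72 h, and 1625, 1590, 1895 and 1854 at 1 week. It fell by 0.75 ± 0.11 at 24 h (adjusted p = 1.82e-06) and by 0.97 ± 0.11 at 72 h (adjusted p = 1.04e-08), and at 1 week the change was -0.10 ± 0.10 (adjusted p = 0.377). The peak 1.0 kb after the start stayed low, at 326, 255 and 257 in NSPs and 96.1, 93.5, 117 and 123 at 1 week (-1.37 ± 0.19, adjusted p = 3.81e-07). A weak peak 10.0 kb before the start opened from 15.2, 10.4 and 9.97 to 82.0, 60.8, 66.0 and 54.7 at 1 week (2.39 ± 0.28, adjusted p = 1.58e-08).

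**Figure D3:**
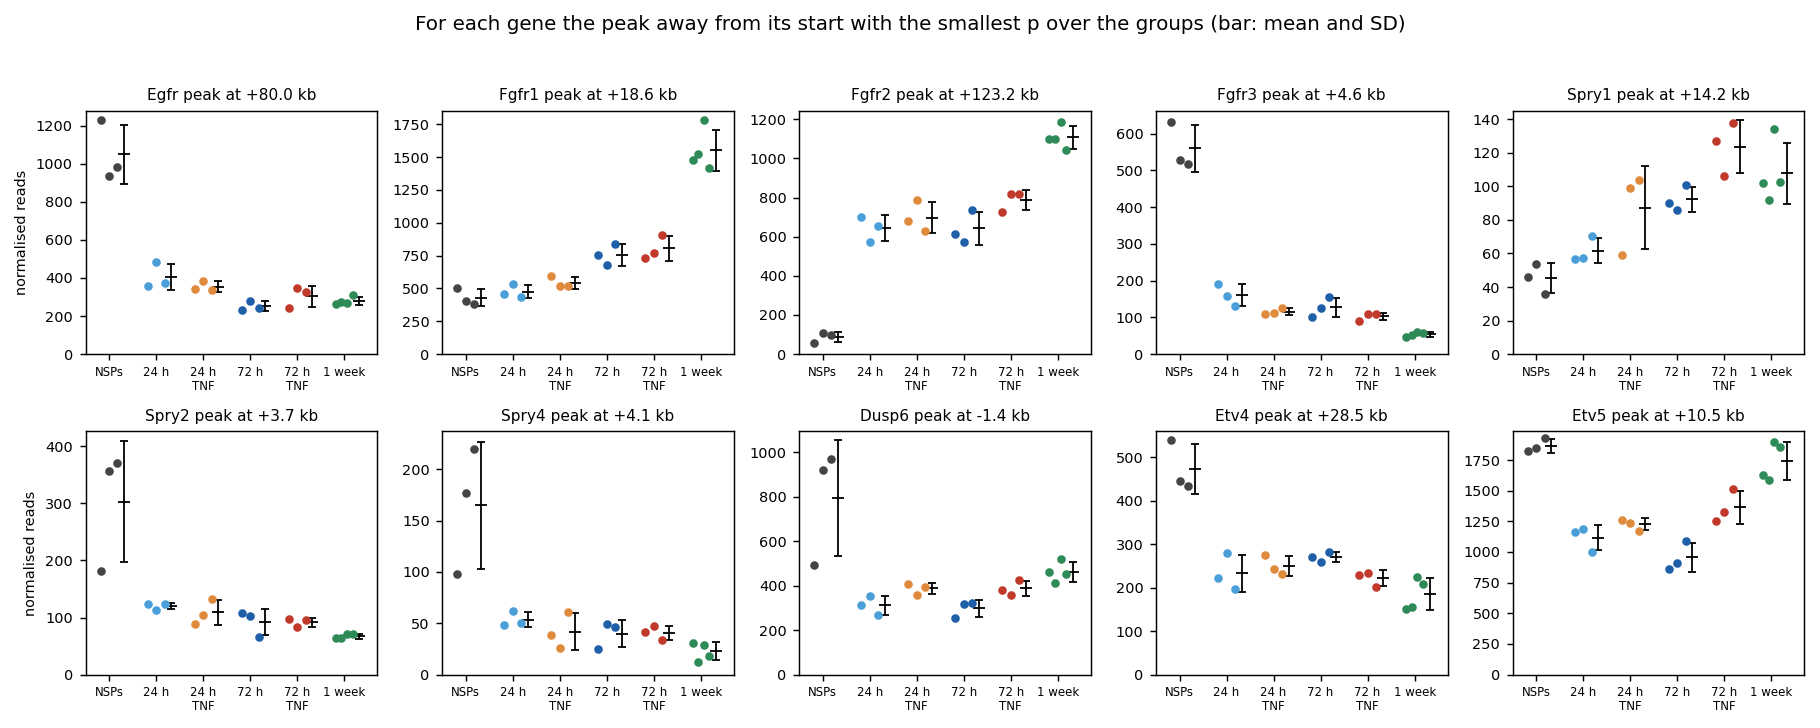
For each gene the panel shows the peak away from the start with the smallest p over the groups. Points are libraries in normalised reads, and the bar gives the mean and SD of each group. The Fgfr2 and Fgfr1 peaks reach 1107 and 1550 on average at 1 week, while the Fgfr3 peak falls to 53.4 and the Egfr peak to 279.

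At the start peaks the median change was below 0 in every comparison with NSPs. Of the 10, 9 were called lower at 24 h, 10 at 72 h and 6 at 1 week, where 42.7%, 58.9% and 27% of all 11265 start peaks were. In cells with TNF 9 were lower at 24 h and 10 at 72 h, with a background of 49.2% and 48.4%. Over the 10 the median change at these 3 times was -0.49, -0.70 and -0.32, beside -0.30, -0.43 and 0.01 over all start peaks. At 24 h the changes ranged from -0.94 at Etv4 to -0.32 at Spry1. With scaling by total reads, 5 of the 10 remained called lower at 24 h, and all 10 values stayed below 0 with a median of -0.30. Without NSP replicate 1, Fgfr2 (-0.29) and Etv5 (-0.24) were not called at 24 h, and the count at 1 week was 5. Without 1 week replicate 1 it was 3, with Spry1 (-0.43), Spry4 (-0.33) and Dusp6 (-0.23) not called. Other fits and scalings raised the count at 1 week, to 7 with edgeR, DESeq2 and TMM, 8 with total reads and 10 with loess offsets. The shares of all start peaks under these other fits and scalings were not computed, so these counts have no background beside them.

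**Figure D4:**
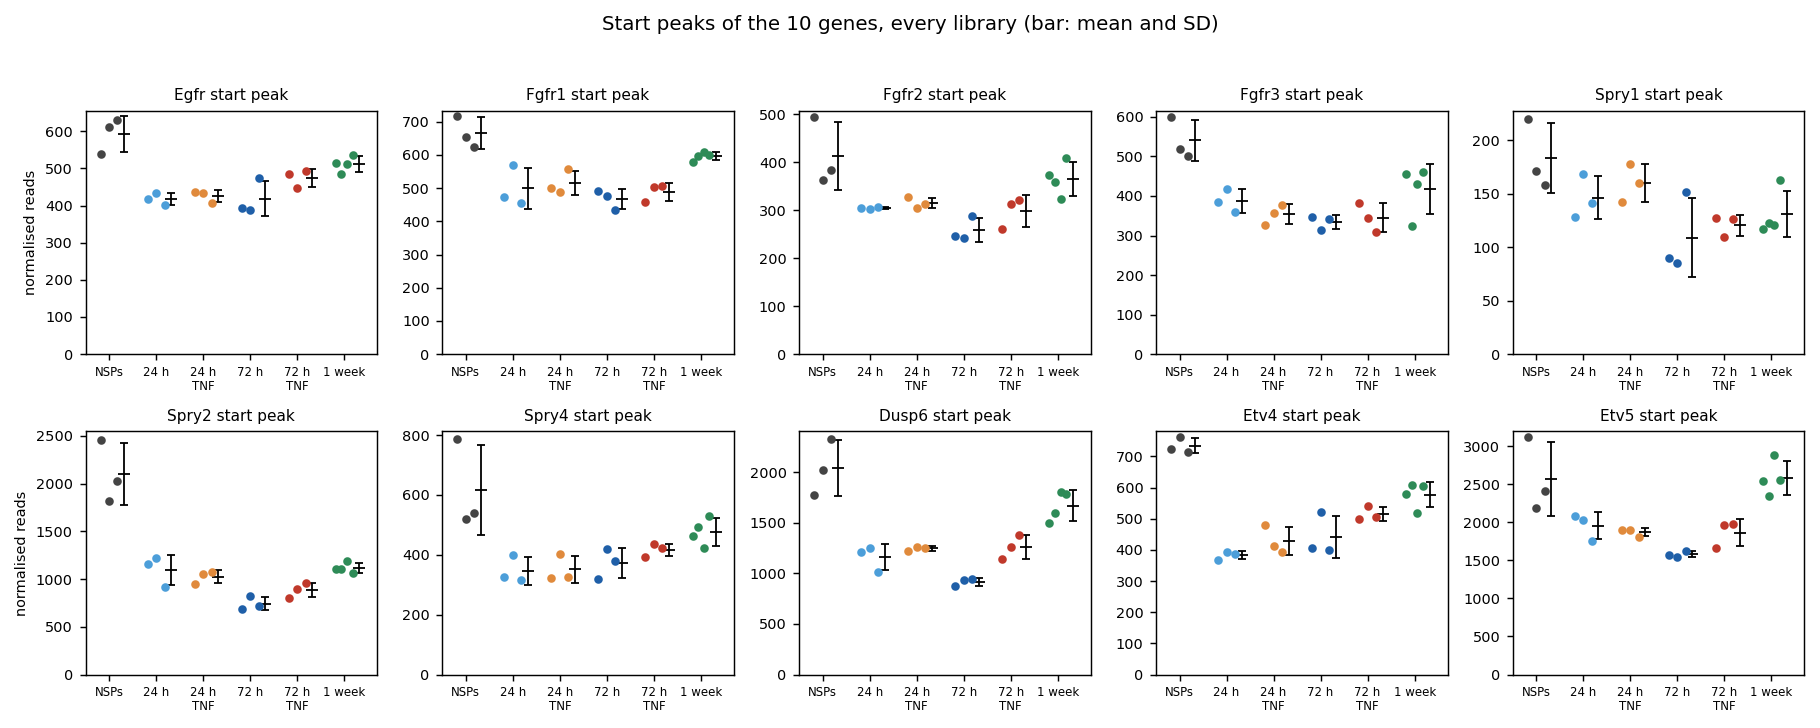
Each panel shows the start peak of a gene, with points for the 19 libraries in normalised reads and a bar for the mean and SD of each group. Spry2 falls from a mean of 2100 in NSPs to 742 at 72 h, and Dusp6 from 2039 to 915, and Dusp6 and Etv5 then rise again by 1 week.

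Between 72 h and 1 week, 20 of the 77 peaks were called higher and 4 lower, with a background of 22.5% and 16.2%. Of the 10 start peaks 9 were called higher, where 61% of all start peaks were. Dusp6 rose by 0.86 ± 0.10 (adjusted p = 6.12e-07), and Etv5 rose by 0.70 ± 0.11 (adjusted p = 1.06e-05). The scaling mattered here. When values were scaled by total reads, the median of all peaks moved from 0.02 to -0.31, and the members had 7 higher and 19 lower, with a background of 8.96% and 33.8%. With offsets fitted by loess, 6 were higher and 4 lower, with a background of 13% and 11.6%, and 0 of the 10 start peaks were called by limma (1 at an unadjusted p under 0.05). With loess the Etv5 start peak lay at -0.026, and those of Egfr, Fgfr1 and Fgfr3 also turned below 0, at -0.070, -0.047 and -0.0087. The count of start peaks was 5 with edgeR and 6 with DESeq2. For these alternatives the share of all start peaks was not computed. The gain of the Fgfr1 peak at 18.6 kb and the drop of the Fgfr3 peak at 4.6 kb were called under every alternative run.

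With TNF, 5 of the 77 peaks (6.49%) were called higher and 0 lower at 24 h than without it, near the background of 7.06% and 3.53%. At 72 h, 8 (10.4%) were higher and 0 lower, with a background of 6.24% and 5.55%. These counts of 0 come from limma. At an unadjusted p under 0.05 there were 5 lower at 24 h and 1 at 72 h, edgeR gave 0 at both times, and DESeq2 gave 2 at 24 h and 0 at 72 h. Without 24 h replicate 2 the higher peaks at 24 h numbered 3, and those at 72 h numbered 5 without 72 h replicate 3 or without any 1 of the TNF libraries. The interaction of TNF with time was called at 0 of the 77 peaks by limma, edgeR and DESeq2. Of all peaks, limma and edgeR each called 0.00112%, and DESeq2 called 0.0202% higher and 0.0753% lower. With limma, 7 of the 77 had an unadjusted p under 0.05. The 9 peaks called at either time lay at Egfr (2), Fgfr1, Fgfr2, Dusp6, Etv4 and Etv5 (3).

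At Egfr the peak 96.8 kb into the gene (chr11:16848707-16849207) held 74.0, 67.9 and 45.6 normalised reads at 24 h and 113, 111 and 139 with TNF. At 72 h it held 99.1, 112 and 82.8, and 218, 188 and 174 with TNF. The groups did not overlap at either time, which the rule that named this peak required. The changes of 0.97 ± 0.21 (adjusted p = 0.00276) and 0.98 ± 0.21 (adjusted p = 0.00245) were called under every alternative run. The Etv4 peak 5.8 kb before the start (chr11:101790828-101791328) held 230, 292 and 274 at 72 h and 524, 513 and 473 with TNF (0.93 ± 0.13, adjusted p = 7.98e-06). At 24 h it held 321, 310 and 393 without and 419, 420 and 452 with TNF, and the change of 0.34 ± 0.13 was not called (adjusted p = 0.0813).

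Etv5 had 3 peaks that rose with TNF. The peak at 50.3 kb held 130, 108 and 155 at 24 h against 225, 264 and 284 with TNF (0.98 ± 0.24, adjusted p = 0.00713), a call lost without 24 h replicate 2 (adjusted p = 0.0545). At 72 h it held 111, 148 and 117 against 246, 263 and 263 with TNF (1.04 ± 0.24, adjusted p = 0.00415). The TNF libraries thus lay near NSP replicates 2 and 3, which held 232 and 282, while NSP replicate 1 held 106. The peak at 33.2 kb rose by 1.03 ± 0.20 at 24 h (adjusted p = 0.000653), from 82.0, 109 and 140 to 204, 178 and 300. The peak at 10.5 kb, one of those lower than in NSPs at 72 h, rose by 0.52 ± 0.11 with TNF at 72 h (adjusted p = 0.00166), from 862, 910 and 1092 to 1255, 1324 and 1517. Its TNF libraries still lay below all 3 NSP libraries.

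The Dusp6 start peak was the only start peak of the 10 called with TNF at 72 h, where 2.88% of all start peaks were called higher. It held 872, 929 and 944 without and 1140, 1258 and 1380 with TNF (0.46 ± 0.11, adjusted p = 0.00638), and the call was lost without 72 h with TNF replicate 3 (0.39, adjusted p = 0.0516) and with a replicate block by the numbers in the library names (0.37, adjusted p = 0.0526). At 24 h the corresponding change was 0.11 ± 0.11 (adjusted p = 0.65). At Fgfr1, a peak 66.5 kb from the start that lies inside the neighbouring gene Letm2 held 363, 268 and 293 at 24 h and 501, 517 and 586 with TNF (0.80 ± 0.13, adjusted p = 7.92e-05). At Fgfr2 the weak peak at 65.4 kb held 34.2, 33.9 and 29.6 at 24 h and 69.0, 54.9 and 74.8 with TNF (0.99 ± 0.30, adjusted p = 0.0323). That call was lost without any 1 of the 3 libraries at 24 h and without replicate 1 or 3 of those with TNF, with adjusted p up to 0.134. At 72 h the calls of the Egfr peak at 17.6 kb (0.57 ± 0.18, adjusted p = 0.0433), the same Fgfr1 peak (0.39 ± 0.13, adjusted p = 0.0419) and the Etv5 peak at 33.2 kb (0.66 ± 0.20, adjusted p = 0.027) were each lost on leaving out any 1 of at least 4 libraries, and their adjusted p reached 0.222 over the alternatives.

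**Figure D5:**
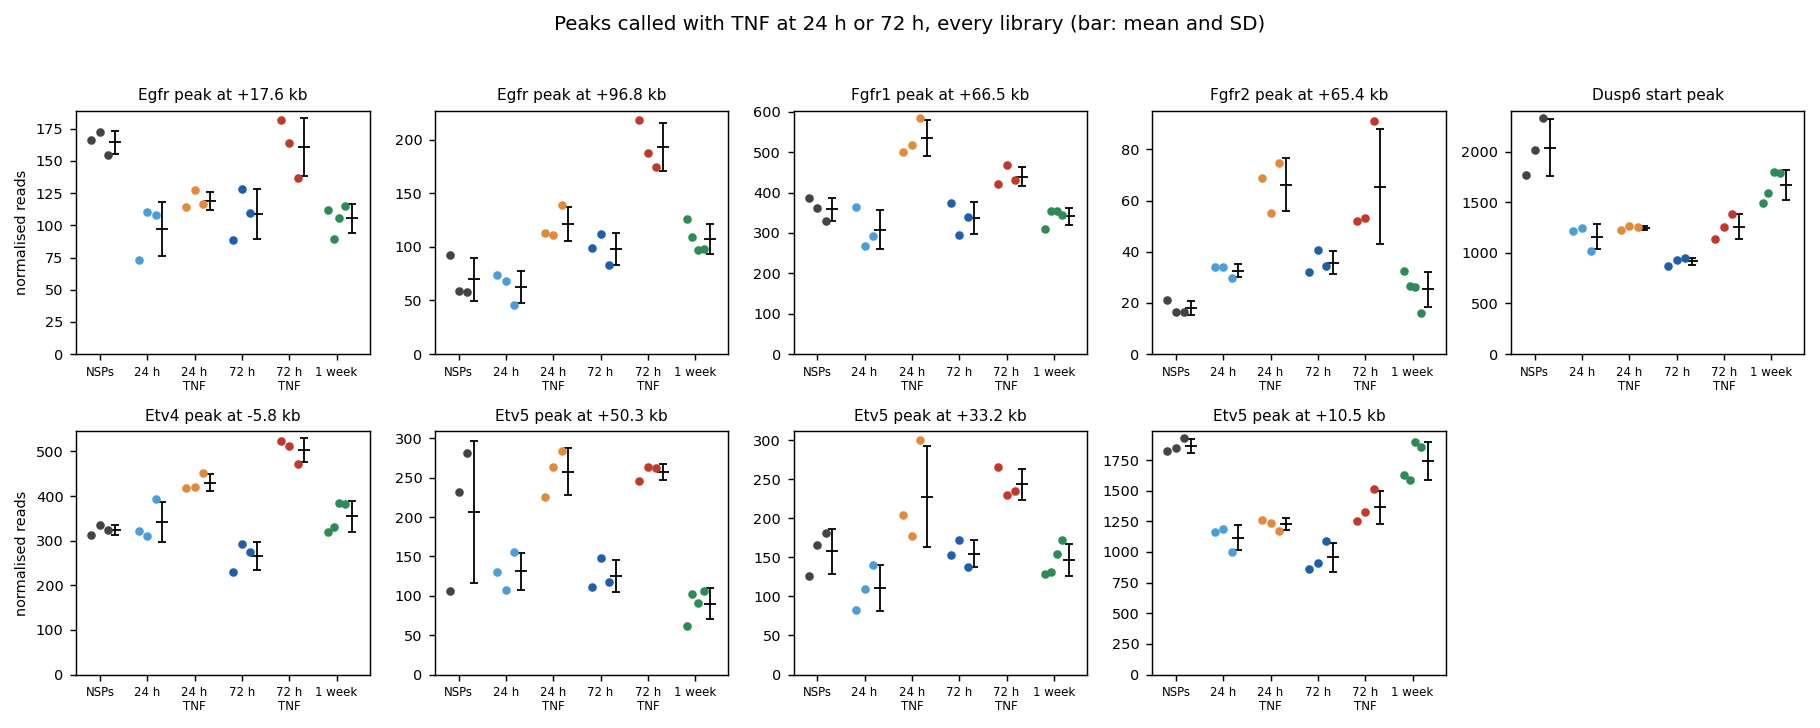
Panels show the 9 peaks called with TNF at 24 h or 72 h, with points for libraries in normalised reads and a bar for the mean and SD of each group. The TNF libraries lie above their untreated group at the called time, as for the Etv4 peak 5.8 kb before the start, with means of 503 and 265 at 72 h.

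The summed value of all peaks of a gene puts its peaks on 1 scale, as a description with no test. A sum is weighted towards the strongest peaks, among them peaks described above. It is thus not separate evidence that a whole locus opened or closed. Egfr went from 2788 ± 31.9 in NSPs to 1976 ± 119 at 24 h and 1923 ± 94.0 at 1 week (mean ± SD of libraries). Spry2 went from 2917 ± 245 to 1645 ± 148 and 1595 ± 35.6, and Dusp6 from 3254 ± 790 to 1583 ± 151 and 2231 ± 187. The sums of Fgfr2 and Fgfr1, which include the strong peaks at 123.2 kb and 18.6 kb, ended above NSPs. Fgfr2 went from 1838 ± 197 to 2217 ± 80.3 at 24 h and 2928 ± 46.4 at 1 week, and Fgfr1 from 2856 ± 203 to 2350 ± 87.2 and 3867 ± 206. The sum of Etv5 was 5200 ± 428 in NSPs, 3075 ± 138 at 72 h and 4815 ± 393 at 1 week, the last overlapping the first.

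Other genes of the pathway were followed by their start peaks, which 37 of 43 listed genes had. This list, too, was chosen with earlier results of these data known. At 24 h 19 (51.4%) were lower, at 72 h 27 (73%) and at 1 week 15 (40.5%), beside 42.7%, 58.9% and 27% of the start peaks of all genes, with medians of -0.35, -0.51 and -0.05. At 1 week 7 (18.9%) were higher, beside 25.4% of all start peaks. At 24 h and 72 h limma called 0 of the 37 higher, beside 3.75% and 6.17% of all start peaks, shares at which few of 37 would be called. At an unadjusted p under 0.05, 0 were higher at 24 h and 1 at 72 h, with edgeR and DESeq2 giving 0 at 24 h and 1 at 72 h. At 24 h, loess offsets gave 10 lower and total-read scaling 11, and at 72 h both gave 18. The shares of all start peaks under these scalings were not computed. Among genes that restrain or report the signal, 7 of 10 were lower at 24 h with a median of -0.74, 9 of 10 at 72 h with a median of -0.96, and 7 of 10 at 1 week with a median of -0.31, when the 6 ligand genes had a median of -0.44. Of these genes, Spred1, a Sprouty-related inhibitor, went from 953 ± 191 to 469 ± 100.2 at 24 h (-1.03 ± 0.15, adjusted p = 1.23e-06). Dusp5, a nuclear ERK phosphatase, changed by -0.87 ± 0.12 (adjusted p = 8.31e-07), and Phlda1, a gene induced by growth factors, by -0.90 ± 0.12 (adjusted p = 2.61e-07). Of the 9 genes of the kinase cascade, 5 were lower at 24 h and 8 at 72 h. At 1 week 1 was lower and 4 were higher, where 25.4% of all start peaks were higher. Over all 37 genes, the 7 higher calls at 1 week became 4 with loess offsets and 5 with total-read scaling. Erbb2, a receptor related to Egfr, was higher at 1 week (0.57 ± 0.10, adjusted p = 1.55e-05). With TNF at 72 h, Etv1, the third ETS factor of this subfamily, and Phlda1 were the 2 of the 37 called, both higher, by 0.54 ± 0.15 (adjusted p = 0.0186) and 0.42 ± 0.12 (adjusted p = 0.0163).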

How the data were processed

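ATAC-seq, which reads open chromatin by transposase insertion, was run on 19 libraries in 6 groups. Per the labels and methods, reads were trimmed by the authors (Trim Galore) and mapped to mm10 (Bowtie2). They called peaks with MACS2, removed blacklisted regions and counted reads over a shared set of peaks, and the submitters' processing notes also name FastQC and SAMtools, with no versions. The deposited table gives a signal value per peak and library, which the authors normalised. All values of a library (100%) could be written as a whole number of steps of 1 size (tolerance 0.001 of a read), so they are whole reads divided by 1 factor per library. Position and build are those of the deposited table, and gene positions came from RefSeq for GRCm38.

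A test on counts had been planned. Since the deposited values were normalised, limma 3.58.1 in R 4.3.3 was fitted with trend to log2(value + 1) over all 19 libraries with group as the only term, after edgeR's filter at a minimum count of 10, which left out 1235 peaks. Adjustment was by Benjamini-Hochberg over 88919 peaks. Count tests on the recovered reads (edgeR 4.0.16 quasi-likelihood, DESeq2 1.42.0) were alternatives, and edgeR called 22561 peaks higher and 20131 lower at 24 h. Other alternatives were scaling by total reads, loess offsets and TMM, a pseudocount of 5, no filter, only the groups compared, a replicate block, each library left out, a window of 50 kb and gene bodies only. A simulation changed few peaks, only in the 24 h group, and set the same spread for all peaks. There 99% of peaks with a 4-fold change and 26% with a 2-fold change were recovered. Far more peaks were called in the real data, which makes the adjusted threshold easier to pass, so these shares do not carry over to it.

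A start peak is the peak nearest to the gene start with its centre within 1 kb. Where no strand was at hand (Fgfr1, Spry4 and Etv4) the gene end with the nearest peak was used as the start. Named peaks were the start peak of each gene, the other peak of each gene with the smallest p over the 6 groups, and the 3 calls per direction with the smallest p and no overlap of libraries in 5 comparisons, which gave 28 peaks. The members and lists were chosen with earlier results of these data known. Reads in peaks set the precision, at 9640256 to 39349111 per library, and arise from PCR without molecular identifiers.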

Additional observations from a re-analysis of the deposited data

Results flagged for a closer look

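The start peak of Spry1 was flagged because 1 of the 4 libraries at 1 week lay far from the others. The libraries held 117, 123, 121 and 163 normalised reads, and the gap of the highest to its neighbour was 0.872 of the whole range. The Egfr peak 80.0 kb into the gene was flagged in the same way, with 265, 272, 268 and 310 at 1 week and a gap of 0.852 of the range. Both gaps exceed Dixon's 95% limit for 4 samples. Of 28 such groups 2 were flagged, and chance flags about 1 in 20.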

How the results depend on the processing

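Of the 150 called changes of the named peaks, DESeq2 kept 146 past the threshold, edgeR and TMM 142 each, only the groups compared 139, and a pseudocount of 5 and no filter all 150. Scaling by total reads and loess offsets each kept 125. The changes that turned direction were all between 72 h and 1 week. With total-read scaling they were the start peaks of Egfr (-0.046) and Fgfr3 (-0.034), and with loess offsets those of Egfr (-0.070), Fgfr1 (-0.047), Fgfr3 (-0.0087) and Etv5 (-0.026). For 1 week against 72 h, the count of higher peaks was 7 with total-read scaling, 6 with loess offsets and 13 with edgeR, and that of lower peaks 19 with total-read scaling, 8 with TMM and 7 with edgeR. Start peaks called higher there numbered 3 with total-read scaling, 0 with loess, 5 with TMM and 5 with edgeR. Start peaks called lower numbered 5 at 24 h with total-read scaling and 10 at 1 week with loess. The matching shares of all start peaks were not computed. For TNF at 24 h, 1 lower peak was called with a pseudocount of 5, with no filter and with only the groups compared, and 2 with DESeq2. At 72 h total-read scaling called 5 higher with TNF. Why the scalings differ was not tested.

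Counting gene bodies only, which holds fewer peaks, gave 8 higher and 20 lower at 24 h, 11 and 19 at 24 h with TNF, 9 and 23 at 72 h, 11 and 18 at 72 h with TNF, and 8 and 22 at 1 week, all against NSPs. It also gave 7 higher at 1 week against 72 h, 5 higher with TNF at 72 h, and 37 over the 6 groups. A window of 50 kb, which holds more peaks, gave 50 lower at 24 h with TNF against NSPs, 9 lower at 1 week against 72 h, 8 higher with TNF at 24 h and 1 lower with TNF at 72 h.

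Leaving out 1 library at a time gave 11 to 15 higher and 30 to 34 lower at 24 h, 17 to 21 and 30 to 33 at 24 h with TNF, 14 to 18 and 34 to 38 at 72 h, 17 to 19 and 28 to 32 at 72 h with TNF, and 16 to 19 and 29 to 34 at 1 week. It gave 14 to 19 higher and 3 to 6 lower at 1 week against 72 h, 3 to 5 higher and 0 to 1 lower with TNF at 24 h, 5 to 7 higher and 0 to 1 lower with TNF at 72 h, 0 for the interaction, and 61 to 65 over the 6 groups. Start peaks called lower numbered 7 to 9 at 24 h, 8 to 9 at 24 h with TNF, 10 at 72 h, 8 to 10 at 72 h with TNF and 3 to 6 at 1 week, and those called higher 6 to 8 at 1 week against 72 h and 0 to 1 with TNF at 72 h.

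For samples with the same replicate number, the correlation of their deviations from the group mean ranged from -0.031 to 0.106. Values this low cannot show whether such samples shared an animal or culture, which the labels do not state. A replicate block by the numbers in the titles lost 5 of the 150 calls. A replicate block by the numbers in the library names lost 8, with 4 peaks called higher with TNF at 72 h and 0 of the start peaks. Depth was lowest in 1 week replicate 3, and peaks with under 10 reads in NSPs support no fold.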
